A study of Mus musculus with 9 samples.

Results

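The ErbB receptors *Egfr*, *Erbb2* and *Erbb3*, the EGF-type ligands *Areg*, *Ereg*, *Hbegf*, *Tgfa*, *Btc* and *Epgn*, and the feedback inhibitor *Errfi1* were examined in mouse squamous cell carcinoma (SCC) cells. These 10 genes were chosen by name, as family members, from the 19044 genes of the table, and all 10 were found in it. RNA-seq libraries came from 3 cell lines, FAK-WT, FAK-/- and FAK-kd, with 3 libraries each. The tumours arose in FVB mice carrying K14CreER and FAK flox/flox alleles after the DMBA and TPA skin carcinogenesis protocol, and FAK was deleted by 4-hydroxytamoxifen in the excised SCC cells in culture. FAK is focal adhesion kinase, a non-receptor tyrosine kinase of cell-matrix adhesions. A retroviral vector with hygromycin resistance put either wild-type FAK or a kinase-deficient form back into cells of 1 FAK-/- clone, which gave the FAK-WT and FAK-kd lines. The 3 lines therefore share the deletion of the endogenous gene, and FAK-WT is a re-expressed protein. No vector or selection is given for the FAK-/- cells, so that transduction and FAK status cannot be told apart where FAK-/- cells are compared. Whether the replicates were separate cultures is not given either, and the p-values measure the spread between these libraries.

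Levels are given as CPM, that is estimated counts relative to the library totals after TMM scaling. FAK-WT replicate 1 held 779755 counts, which was 2.31% of the median of the other 8 libraries (25304994 to 37264636 counts). With 3 counts as the detection floor, it shows a gene from 3.85 CPM, and the others from between 0.0805 and 0.119 CPM. For the 10 genes, differences of FAK-WT cells that passed the test described below are given with and without this library. *Ptk2*, which encodes FAK, averaged 215 ± 1.92 CPM in FAK-WT (here and below ± gives the SD over n = 3 libraries). FAK-/- cells had 21.6 ± 1.93 and FAK-kd cells 163 ± 11.5, so that the line labelled as deleted was the lowest. The lines that re-express FAK also differed, with *Ptk2* higher in FAK-WT by 0.40 on the log2 scale (adjusted p = 0.00163). Of 8 keratinocyte markers, *Krt5*, *Krt14*, *Krt18* and *Cdh1* had at most 8 counts in every library, *Krt8* reached at most 1.38 CPM, and *Trp63* and *Epcam* were not analysed here, so the defining markers of the labelled carcinoma were at or near 0. *Itgb4*, a hemidesmosomal integrin chain, was present at 54.1 to 102 CPM. The summed level of the 5 fibroblast markers measured of 6 was 16.4 to 17.6 CPM in FAK-WT, 31.8 to 36.3 in FAK-/- and 25.1 to 36.5 in FAK-kd libraries, most of it *Pdgfra*. The sums of the 4 immune markers measured of 5 stayed at or below 3.68 CPM, those of the 4 endothelial markers at or below 2.05, and those of 3 melanocyte markers of 4 at or below 0.210.

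EGF-type ligands are made as membrane-anchored precursors, are cut from the cell surface by ADAM metalloproteases, and bind the extracellular part of EGFR. Ligand binding pairs EGFR with itself or with another ErbB receptor, the kinase domains phosphorylate each other's tails, and adaptors then start Ras-ERK, PI3-kinase and STAT signalling. ERBB2 has no known ligand of its own and acts as the preferred partner, while ERBB3 has little kinase activity and signals through its partners. In skin, this system drives growth and repair of keratinocytes, which make several of the ligands themselves.

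Across the family, every difference from FAK-/- cells that passed the test in the edgeR fit of all 9 libraries was a lower level in FAK-WT or FAK-kd cells. A gene was taken as past the threshold where the quasi-likelihood test of edgeR gave an adjusted p of 0.05 or below and the log2 fold change reached 1 in either direction. In FAK-WT against FAK-/- cells 3 of the 10 genes were past it, *Egfr*, *Btc* and *Tgfa*, all lower in FAK-WT, where 5.38% of all genes tested were past it in either direction. On the adjusted p alone 7 genes were lower and 0 higher, against 18% of all genes. In FAK-WT against FAK-kd cells *Egfr* and *Erbb3* were lower past the threshold (2 of 10, against 5.26% of all genes), and on the adjusted p alone 3 genes were lower and *Erbb2* was higher (4 of 10, against 17.7%). In FAK-kd against FAK-/- cells *Btc* alone was past the threshold, lower in FAK-kd (1 of 10, against 2.01%), and 3 genes passed the adjusted p, all lower (against 7.84%). The median log2 fold change of the 10 genes was -0.57, -0.12 and -0.13 in the 3 comparisons, beside a median of 0 over all genes. The libraries of the lines compared did not overlap for 7, 6 and 6 of the 10 genes, beside 29.6%, 32.8% and 25.3% of all genes. In both comparisons with FAK-WT, 2 of these genes, *Erbb3* and *Tgfa*, had 0 counts in FAK-WT replicate 1. Its floor lies above the levels compared or near them, so 5 and 4 genes remain. Of the 4, *Erbb2* and *Areg* in FAK-WT replicate 1 lay within counting error of FAK-kd libraries. That error was 18.6% on 29 counts for *Erbb2* and 13.2% on 57 for *Areg*, so their separation there is not shown. In an exact permutation test of the CPM (two-sided) a gene without overlap has p = 0.1, the smallest that 3 libraries against 3 allow. Every line enters a pair of the comparisons, so these counts are not independent of each other. The shares of all genes were not matched for level. The edgeR filter on low counts kept 8 of the 10 genes, but 12235 of all 19044. In bulk RNA, fewer cells of a type and less RNA per cell cannot be told apart, and this holds for each value here.

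**Figure D1:**
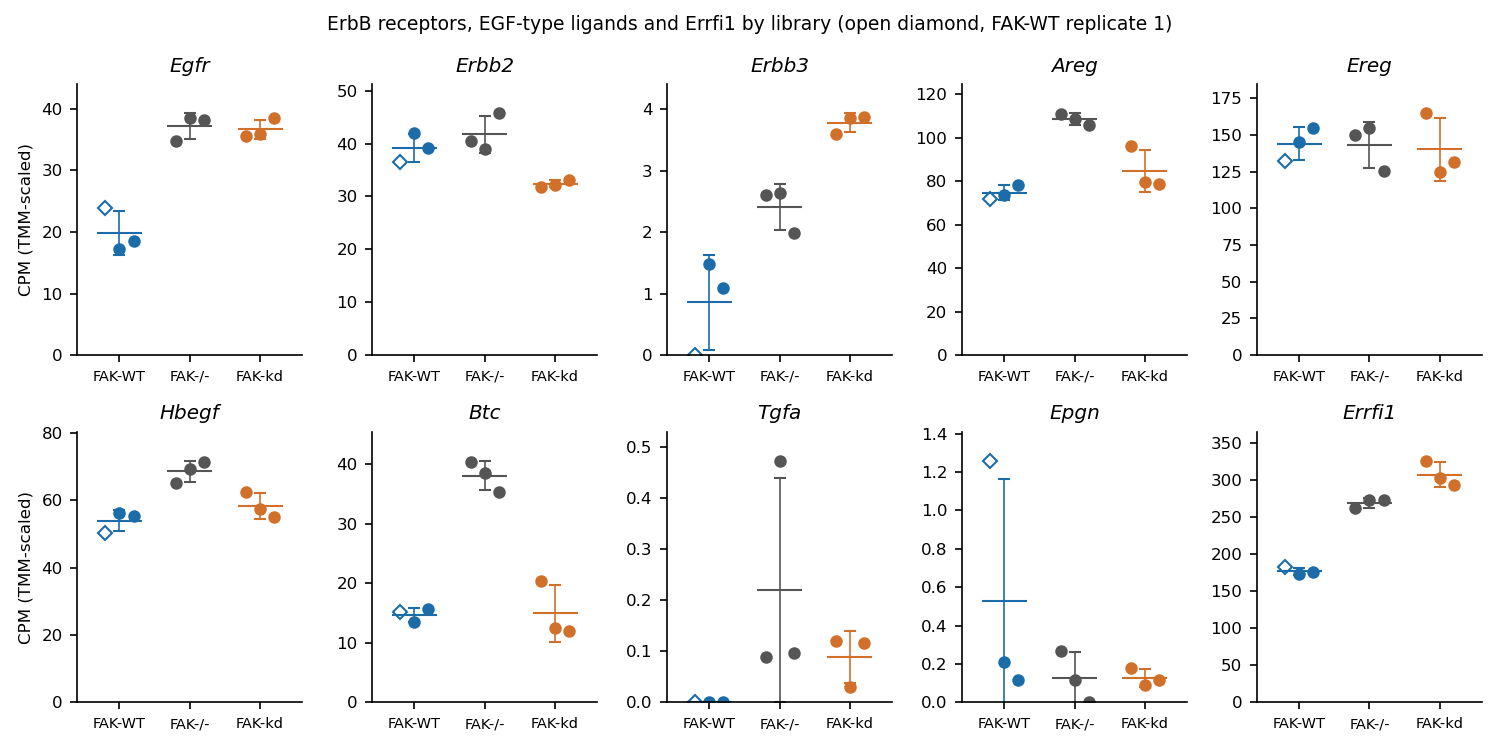
CPM of the 10 genes in each of the 9 libraries, 1 panel per gene with its own axis from 0. Points are libraries, the open diamond is the shallow FAK-WT replicate 1, and lines and bars give the mean and SD of 3 libraries. *Egfr* and *Errfi1* were lower in the 3 FAK-WT libraries than in all others, *Btc* was higher in the 3 FAK-/- libraries, and *Ereg* overlapped between the lines.

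*Egfr*, the receptor that gives the family its name, lies on chromosome 11 (GRCm38, plus strand, chr11:16752203-16918158). It was at 23.9, 17.2 and 18.5 CPM in FAK-WT replicates 1, 2 and 3, at 34.7, 38.5 and 38.2 in FAK-/- and at 35.6, 36.0 and 38.4 in FAK-kd cells. All FAK-WT libraries were below all others, and the FAK-/- and FAK-kd libraries overlapped. FAK-WT replicate 1, the highest of its line, rests on 19 counts, with a counting error of 22.9%. The mean fell from 37.1 ± 2.10 CPM in FAK-/- cells to 19.9 ± 3.57 in FAK-WT cells, a log2 fold change of -1.02 (SE 0.11, adjusted p = 5.99e-06). Against FAK-kd cells (36.7 ± 1.53 CPM) it was -1.0 (SE 0.11, adjusted p = 7.22e-06). FAK-kd and FAK-/- cells differed by -0.02 on the log2 scale (SE 0.09, adjusted p = 0.985). Without FAK-WT replicate 1 the changes were -1.06 and -1.04. An antisense gene overlaps *Egfr*, and 1.01% of its 31-base words occur in transcripts of other genes, so a small part of its reads may be shared.

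Both *Egfr* calls stand at the fold limit. Of 17 alternative settings, 3 moved the FAK-/- comparison under it and 10 the FAK-kd comparison. The former were a test against a log2 fold change of 1 (glmTreat), leaving out FAK-WT replicate 2 (-0.93) and leaving out FAK-/- replicate 2 (-0.99). For FAK-kd, the call was lost in glmTreat, in DESeq2, with other scalings, with a count filter, and without FAK-WT replicates 2 or 3, FAK-/- replicates 1 or 2 or FAK-kd replicate 3, at log2 fold changes from -0.91 to -1.0. The direction was the same in each, and outside glmTreat the adjusted p was at most 0.000338. *Pdgfra*, the main fibroblast marker and itself a receptor tyrosine kinase, changed with *Egfr*: it was 11.1 ± 0.865 CPM in FAK-WT cells, 31 ± 3.69 in FAK-/- and 24.7 ± 5.59 in FAK-kd. The other fibroblast markers did not all share this order. *Col1a2*, at most 7.16 CPM in any library, had its lowest mean in FAK-/- cells (2.50 ± 1.03 CPM). Its mean was 4.90 ± 1.30 CPM for the FAK-WT line, with as few as 5 counts in a library, and 6.11 ± 0.910 for FAK-kd. *Col1a1* reached 1.64 CPM and, like *Pdgfra*, was lowest in FAK-WT cells. *Dcn*, with its lowest mean in FAK-/- cells too, and *Thy1* had at most 19 counts. The part of these markers in the *Egfr* result, and in those of *Erbb3* and *Errfi1*, which were also lowest in FAK-WT cells, was not tested.

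The sequence before the *Egfr* start is shown because the gene differed in both comparisons with FAK-WT. RefSeq promoter windows (GRCm38.p6, 250 bases before and 50 after the start) were at hand for 7 of the 10 genes. They were searched on both strands for 5 motifs, AP-1 (TGACTCA), CRE (TGACGTCA), ETS (CCGGAAGT), TEAD (GGAATG) and the GC box (GGGCGG). Of 32851 windows in the table, 5.2% held the AP-1 letters, 1.79% the CRE, 3.89% the ETS, 14.7% the TEAD and 35.7% the GC box letters. In the *Egfr* window the search found 1 GC box, on the minus strand, starting 9 bases before the start site. In the sequences printed, capitals mark matches, and no match overlapped another. The 250 bases before the start, on the plus strand of chr11:16751953-16752202, read 5′ to 3′:
Egfr: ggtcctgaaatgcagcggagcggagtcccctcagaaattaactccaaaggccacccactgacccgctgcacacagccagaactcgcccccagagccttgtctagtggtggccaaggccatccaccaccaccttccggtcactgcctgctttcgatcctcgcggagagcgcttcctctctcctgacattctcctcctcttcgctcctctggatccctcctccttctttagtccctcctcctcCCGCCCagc
Their GC content was 60.8%, beside a median of 52.4% over all windows. A match is a description of letters and not a binding site.

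*Erbb2* encodes the ligandless partner receptor and lies on the same chromosome (chr11:98412470-98437716, plus strand). It was at 36.5, 41.9 and 39.1 CPM in FAK-WT, 40.6, 39.0 and 45.7 in FAK-/- and 31.8, 32.2 and 33.1 in FAK-kd cells. The FAK-kd libraries were the 3 lowest, while FAK-WT and FAK-/- overlapped. FAK-kd cells thus had 32.4 ± 0.653 CPM beside 39.2 ± 2.70 in FAK-WT and 41.7 ± 3.49 in FAK-/- cells. The log2 fold change was 0.31 (SE 0.10, adjusted p = 0.0368) in FAK-WT against FAK-kd cells and -0.37 (SE 0.09, adjusted p = 0.0191) in FAK-kd against FAK-/- cells, both below the fold minimum. Without FAK-WT replicate 1, which had 29 *Erbb2* counts, the first was 0.32 (adjusted p = 0.0266). With the replicate number as a block in the fit it was 0.29 and did not pass (adjusted p = 0.0794). FAK-WT and FAK-/- cells differed by -0.06 (SE 0.10, adjusted p = 0.712). *Erbb2* overlaps *Mien1* on the other strand, but 0% of the *Erbb2* 31-base words occur in transcripts of other genes.

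*Erbb3*, the receptor with little kinase activity of its own, was rare (chr10:128567523-128589652, minus strand). It had 0, 56 and 38 counts in the FAK-WT libraries, 87, 67 and 62 in FAK-/- and 120, 129 and 132 in FAK-kd libraries. The 0 came from the shallow FAK-WT replicate 1, in which levels under 3.85 CPM cannot be seen. In CPM the remaining FAK-WT libraries were at 1.49 and 1.10, the FAK-/- libraries at 2.61, 2.64 and 1.98, and the FAK-kd libraries at 3.6, 3.86 and 3.86. Leaving aside FAK-WT replicate 1, whose level cannot be placed, the lines did not overlap, in the order FAK-WT, FAK-/-, FAK-kd. The log2 fold change of FAK-WT against FAK-kd cells was -1.60 (SE 0.28, adjusted p = 0.000798), or -1.54 without FAK-WT replicate 1. Against FAK-/- cells it was -0.95 (SE 0.28, adjusted p = 0.0295), or -0.89 without that library, under the fold minimum. That call appeared when FAK-WT replicate 2 (-1.22, adjusted p = 0.0499) or FAK-/- replicate 3 (-1.06, adjusted p = 0.00647) was left out. In other settings the adjusted p of this pair did not pass, at 0.0919 in DESeq2 and 0.0980 in edgeR with the 2 lines fitted alone. FAK-kd and FAK-/- cells, neighbours in the order, differed by 0.65 (SE 0.24, adjusted p = 0.132).

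**Figure D2:**
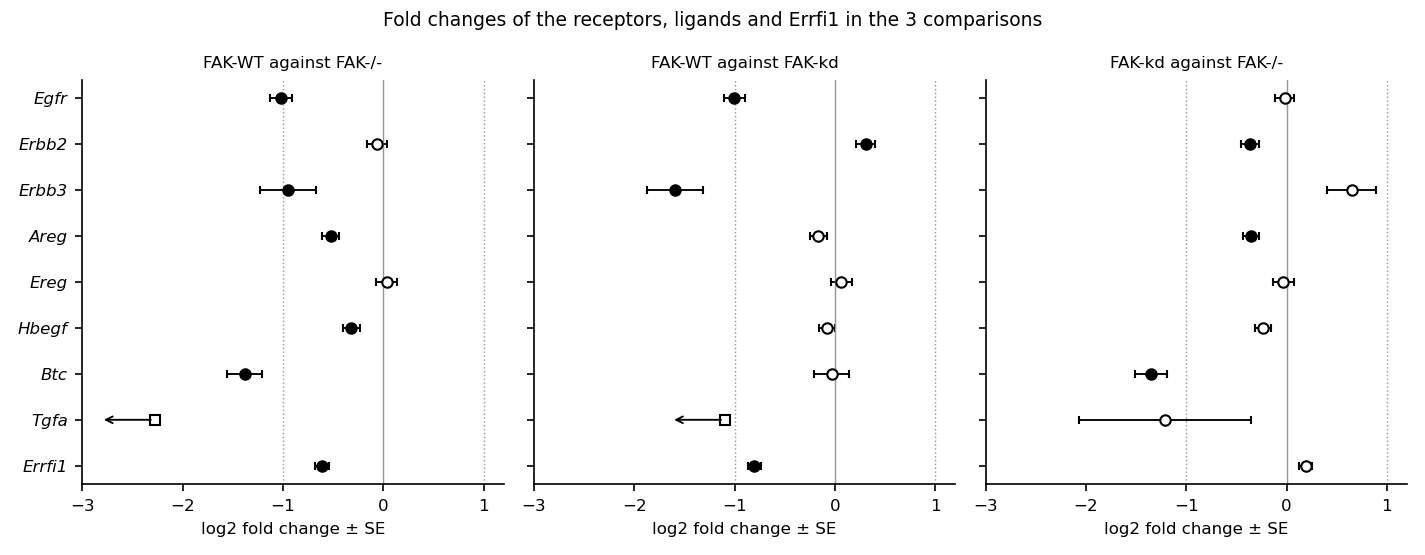
Log2 fold change and SE of 9 of the 10 genes in the 3 comparisons, with *Epgn* left out at 9 or fewer counts in every library. Filled points passed the adjusted p, dotted lines mark a log2 fold change of 1 in size, and squares with arrows are bounds for *Tgfa*, which had 0 counts in FAK-WT cells. *Egfr* sat on the dotted line in both FAK-WT comparisons, and *Btc* was beyond it in both comparisons with FAK-/- cells.

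*Areg* encodes amphiregulin, a ligand first known from keratinocytes and carcinoma cells. It was at 71.8, 73.9 and 78.5 CPM in FAK-WT, 111, 109 and 106 in FAK-/- and 96.1, 79.9 and 78.7 in FAK-kd cells. The 3 FAK-/- libraries were the highest, and the lowest FAK-kd library stood just above the highest FAK-WT library. FAK-WT was lower than FAK-/- by a log2 fold change of -0.52 (SE 0.08, adjusted p = 0.000415), and FAK-kd by -0.36 (SE 0.08, adjusted p = 0.0112). Both are below the fold minimum. FAK-WT and FAK-kd cells, neighbours in the order, differed by -0.17 (SE 0.08, adjusted p = 0.213). Without FAK-WT replicate 1 the first value was -0.51.

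*Ereg* encodes epiregulin, a broad ligand of low affinity and long action. It was at 132, 146 and 155 CPM in FAK-WT, 150.1, 155 and 125 in FAK-/- and 165, 125 and 131 in FAK-kd cells. The lines overlapped in every pair, and the log2 fold changes were 0.03, 0.07 and -0.03 (SE 0.11, 0.11 and 0.10, adjusted p = 0.902, 0.736 and 0.926). Of the *Ereg* 31-base words 2.95% occur in transcripts of other genes, the highest share among the 10, and its annotated antisense neighbour cannot be separated without strand.

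*Hbegf* encodes heparin-binding EGF-like growth factor, a ligand of EGFR and ERBB4, and lies on chromosome 18. It was at 50.4, 56.1 and 55.5 CPM in FAK-WT, 65.3, 69.3 and 71.4 in FAK-/- and 62.5, 57.3 and 55 in FAK-kd cells. The 3 FAK-/- libraries were again the highest, and FAK-WT and FAK-kd overlapped. FAK-WT was lower than FAK-/- by -0.32 on the log2 scale (SE 0.08, adjusted p = 0.0135), or -0.30 without FAK-WT replicate 1. FAK-kd against FAK-/- was -0.24 (SE 0.08, adjusted p = 0.0776), and FAK-WT against FAK-kd -0.08 (SE 0.08, adjusted p = 0.569). The former depended on the setting. Its adjusted p was 0.0364 with the edgeR filter on low counts, 0.0332 with at least 10 counts in every library and 0.0494 in DESeq2.

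*Btc* encodes betacellulin, a ligand of EGFR and ERBB4. It was at 15.1, 13.4 and 15.7 CPM in FAK-WT, 40.3, 38.5 and 35.4 in FAK-/- and 20.4, 12.5 and 11.9 in FAK-kd cells. The FAK-/- libraries stood apart from the other 6, among which FAK-WT and FAK-kd overlapped. The log2 fold change was -1.38 (SE 0.18, adjusted p = 4.99e-05) in FAK-WT against FAK-/- cells and -1.35 (SE 0.16, adjusted p = 6.75e-05) in FAK-kd against FAK-/- cells. Without FAK-WT replicate 1, which had 12 *Btc* counts, the first was -1.39. Both calls held in 16 of 17 alternatives and were lost against a log2 fold change of 1 in glmTreat (adjusted p = 0.187 and 0.500). FAK-WT and FAK-kd cells differed by -0.03 (SE 0.18, adjusted p = 0.946). The sign of that small difference turned without FAK-kd replicate 1 (0.27, adjusted p = 0.137), without FAK-WT replicate 2 (0.08) and with a replicate block (0.10).

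FAK-kd replicate 1 was the highest library of its line for each of *Areg*, *Ereg*, *Hbegf* and *Btc*. Its *Btc* level of 20.4 CPM stood beside 12.5 and 11.9 in the other FAK-kd libraries, and its total of 34100748 counts lay between theirs. It was also the highest of its line for *Errfi1* and the lowest for *Egfr*, *Erbb2* and *Erbb3*.

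*Tgfa* and *Epgn*, which encode transforming growth factor alpha and epigen, were close to the floor. *Tgfa* lies on chromosome 6 (chr6:86195223-86275719, plus strand). It had 0 counts in each FAK-WT library, 3, 12 and 3 in FAK-/- and 4, 1 and 4 in FAK-kd libraries. FAK-WT was thus at 0 and the other lines a few counts above it, with FAK-/- replicate 2 holding 12 of the 18 FAK-/- counts. *Tgfa* was called in FAK-WT against FAK-/- cells (adjusted p = 0.0260) and not against FAK-kd cells (adjusted p = 0.100). With 3 counts over the summed FAK-WT libraries as the floor, the FAK-WT level was 4.84-fold lower than that of FAK-/- cells. Set against FAK-kd cells, it was 2.14-fold lower. These are bounds on the FAK-WT side only, since the 18 FAK-/- and 9 FAK-kd counts are taken as exact. The first bound fell to 2.25 without FAK-/- replicate 2, 2.36 without FAK-WT replicate 2 and 2.54 without FAK-WT replicate 3. The second fell to 1.04 without FAK-WT replicate 2 and 1.1 without FAK-WT replicate 3. It was 1.78 without FAK-kd replicate 1 and 1.79 without FAK-kd replicate 3. Without FAK-WT replicate 1 the adjusted p in FAK-WT against FAK-/- cells was 0.0314. The call was lost without FAK-WT replicates 2 or 3 (adjusted p = 0.118 and 0.110), without FAK-/- replicate 2 (0.0871), with a replicate block (0.0548) and in glmTreat (0.171), and DESeq2 gave no adjusted p. filterByExpr, edgeR's filter on low counts, kept 8 of the 10 genes and dropped *Tgfa* and *Epgn*. *Epgn* had 1, 8 and 4 counts in FAK-WT, 9, 3 and 0 in FAK-/- and 6, 3 and 4 in FAK-kd libraries, and the lines overlapped. Its 1 count in the shallow library amounts to 1.26 CPM, and no difference was detectable at this depth.

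The levels of different ligands were compared after division by the length of the longest coding transcript in GENCODE (CPM per kb). On that scale the 6 ligands summed to 125 ± 6.38 in FAK-WT cells, 166 ± 5.56 in FAK-/- and 134 ± 16.4 in FAK-kd. *Areg* was the largest part, with 49.4% ± 0.546, 53.7% ± 0.899 and 52.3% ± 0.485 of the sum. *Ereg* made up 28.0% ± 0.815, 20.8% ± 1.62 and 25.4% ± 0.989, and *Hbegf* 18.3% ± 0.634, 17.4% ± 1.30 and 18.4% ± 1.09. The *Btc* share was 7.95% ± 0.294 in FAK-/- cells, beside 4.12% ± 0.346 in FAK-WT and 3.83% ± 0.718 in FAK-kd cells, with no overlap between FAK-/- and the others. *Tgfa* and *Epgn* each made up at most 0.605% in any library. Without length correction *Ereg* led instead, with 48.8% to 50.8% in the FAK-WT libraries and means of 39.8% in FAK-/- and 46.9% in FAK-kd cells. These shares have no test and describe RNA, not secreted ligand.

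Among the 3 receptors the order depended on the transcript length. With the longest transcript (10208 bases for *Egfr*), *Erbb2* made up 78.8% ± 2.88 of the receptor sum in FAK-WT cells, 67.3% ± 2.18 in FAK-/- and 60.5% ± 0.455 in FAK-kd. The *Egfr* share was 19.7% ± 4.14, 29.5% ± 1.75 and 33.6% ± 0.493, and the *Erbb3* share 1.42% ± 1.26, 3.27% ± 0.661 and 5.88% ± 0.171. With the median coding transcript (2943 bases for *Egfr*), the *Egfr* share became 45.7%, 59.1% and 63.8%, above *Erbb2* in FAK-/- and FAK-kd cells. The direction between the lines was the same at either length, with the *Egfr* share lowest in FAK-WT. FAK-WT replicate 1, at 24.3%, had the highest *Egfr* share of its line, and without it the FAK-WT mean was 17.4%.

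**Figure D3:**
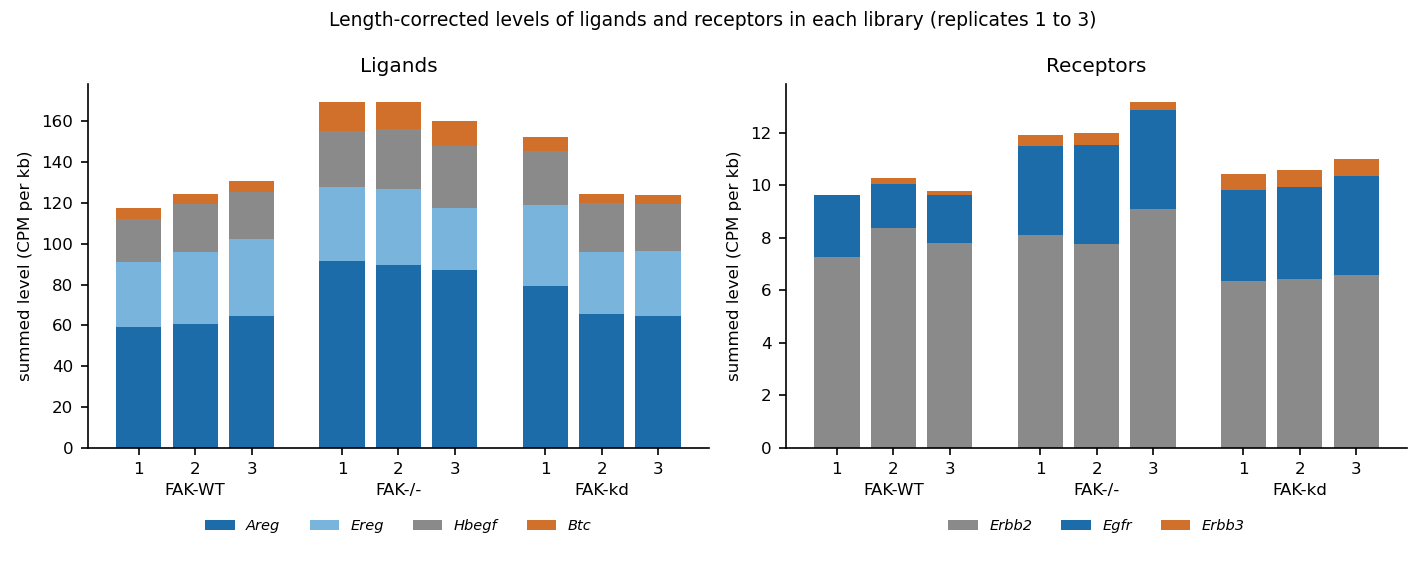
Stacked levels (CPM per kb of the longest coding transcript) of 4 ligands, left, and 3 receptors, right, in each library, with *Tgfa* and *Epgn* too low to draw. The ligand bars of the 3 FAK-/- libraries were the tallest, at 160.0 to 169.7 CPM per kb, and their *Btc* segments the largest. The *Erbb3* segment grew from FAK-WT to FAK-/- to FAK-kd cells, with none in the shallow FAK-WT replicate 1.

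*Epgn*, *Ereg*, *Areg* and *Btc* lie side by side on chromosome 5 within 375.5 kb. *Epgn* (chr5:91027464-91035215), *Ereg* (chr5:91074622-91093646) and *Areg* (chr5:91139599-91148432) are on the plus strand, and *Btc* (chr5:91357261-91402994) is on the minus strand. In FAK-WT against FAK-/- cells the log2 fold changes along this order were 0.03 for *Ereg*, -0.52 for *Areg* and -1.38 for *Btc*, with *Epgn* too low to judge. In FAK-kd against FAK-/- cells they were -0.03, -0.36 and -1.35. The annotation gives 5 protein-coding neighbours on each side, of which 9 of 10 were in the table. *Odaph*, 960 kb from the *Epgn* start, was the only one past the threshold, lower in FAK-WT against FAK-/- (-3.08, SE 0.47, adjusted p = 0.000258) and against FAK-kd cells (-2.70, SE 0.48, adjusted p = 0.000767). It was scarce, at most 1.46 CPM in any library, with 0 counts in FAK-WT replicate 1, and without that library the values were -3.06 and -2.68. The neighbours past the threshold were thus 1 of 9 in each FAK-WT comparison, beside 5.38% and 5.26% of all genes in either direction. *Mthfd2l*, the nearest neighbour on the *Epgn* side, was higher in FAK-WT by 0.65 (SE 0.14, adjusted p = 0.00361) and 0.59 (SE 0.14, adjusted p = 0.00667), below the fold minimum and in the other direction from *Areg* and *Btc*. The chemokine genes *Cxcl1*, *Cxcl2*, *Cxcl3* and *Cxcl15* on that side stayed at or below 0.133 CPM.

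The promoters of *Areg* and *Btc* are shown because these neighbours on the chromosome were both lower in FAK-WT cells when set against FAK-/-, by unequal amounts. The 250 bases before each start, from chr5:91139349-91139598 for *Areg* (plus strand) and chr5:91402995-91403244 for *Btc* (minus strand), read 5′ to 3′:
Areg: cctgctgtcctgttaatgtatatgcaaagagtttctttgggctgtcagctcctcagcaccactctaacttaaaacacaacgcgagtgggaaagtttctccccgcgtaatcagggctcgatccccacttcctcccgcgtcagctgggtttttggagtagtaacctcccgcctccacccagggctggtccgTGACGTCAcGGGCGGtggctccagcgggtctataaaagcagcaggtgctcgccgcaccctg
Btc: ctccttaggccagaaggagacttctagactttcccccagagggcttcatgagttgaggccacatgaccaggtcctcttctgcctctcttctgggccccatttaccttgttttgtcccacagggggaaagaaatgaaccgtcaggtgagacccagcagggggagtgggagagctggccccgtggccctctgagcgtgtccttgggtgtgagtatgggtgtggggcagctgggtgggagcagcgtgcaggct
The *Areg* window held 1 CRE starting 61 bases before the start site and a GC box starting 52 bases before it, both shown, and another GC box in the bases after the start. Of all windows 1.79% held the CRE letters. The *Btc* window held none of the 5 motifs. GC contents were 57.2% and 59.6%.

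**Figure D4:**
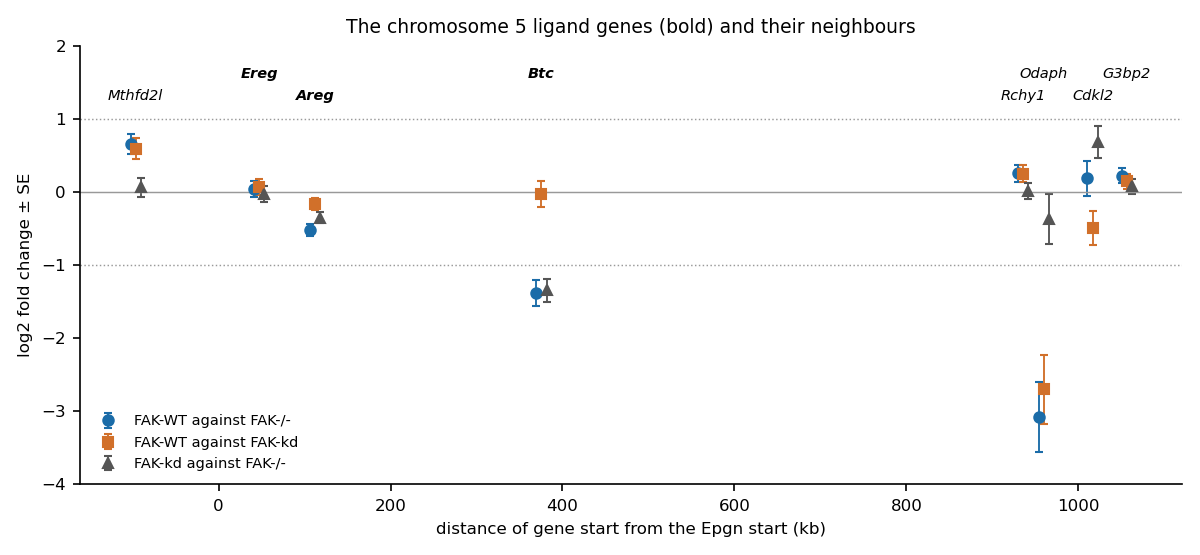
Log2 fold change and SE of the chromosome 5 ligand genes (bold) and their neighbours against the distance of each gene's start from the *Epgn* start in kb, for the 3 comparisons (circles, squares, triangles). The 8 genes with a mean of at least 0.6 CPM in 1 line are drawn. *Btc* at 375.5 kb was near -1.4 in both comparisons with FAK-/- cells and near 0 in FAK-WT against FAK-kd cells.

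*Errfi1* encodes MIG6, which binds and inhibits the active EGFR kinase and is itself induced by EGFR signalling (chr4:150853919-150868892, plus strand). It was at 183, 173 and 176 CPM in FAK-WT, 262, 273 and 274 in FAK-/- and 326, 303 and 294 in FAK-kd cells. No library overlapped between the lines, which stood in the order FAK-WT, FAK-/-, FAK-kd. FAK-WT was lower than FAK-/- by a log2 fold change of -0.61 (SE 0.07, adjusted p = 9.45e-06) and lower than FAK-kd by -0.80 (SE 0.07, adjusted p = 6.22e-07). Without FAK-WT replicate 1 these were -0.63 and -0.82. An antisense gene overlaps *Errfi1* as well, but 0% of the *Errfi1* 31-base words occur in transcripts of other genes. The changes are under the fold minimum, although *Errfi1* had the smallest adjusted p of the 10 genes in the FAK-kd comparison. FAK-kd and FAK-/- cells, neighbours in the order, differed by 0.19 (SE 0.06, adjusted p = 0.0866). In DESeq2 this difference, higher in FAK-kd, passed (adjusted p = 0.0422).

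The *Errfi1* sequence is shown beside those above because the gene was low in FAK-WT, as *Egfr* was. The RefSeq start used lies 123 bases before the GENCODE gene start, and the 250 bases before it (chr4:150853546-150853795, plus strand) read 5′ to 3′:
Errfi1: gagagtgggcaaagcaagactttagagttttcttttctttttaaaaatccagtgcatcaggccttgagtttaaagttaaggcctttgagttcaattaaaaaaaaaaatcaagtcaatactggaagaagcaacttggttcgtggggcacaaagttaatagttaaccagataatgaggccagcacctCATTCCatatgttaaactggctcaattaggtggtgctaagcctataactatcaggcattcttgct
They held 1 match to the TEAD letters, on the minus strand and starting 65 bases before the RefSeq start, and had a GC content of 38.0%. The first 40 bases after this RefSeq start matched the beginning of no *Errfi1* transcript in GENCODE. Of the 7 windows 3 had such a match, those of *Egfr*, *Areg* and *Btc*. None of the 7 windows held the AP-1 or the ETS letters.

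The other genes of the pathway were read from lists of 75 genes, of which 73 were in the table, not counting the 10 above. *Erbb4* and *Nrg1* were not analysed here. Genes named below that did not pass the threshold were chosen after their values were seen, for their roles. In FAK-WT against FAK-/- cells 0 of them were higher and 4 lower past the threshold, which makes 5.48% beside 5.38% of all genes, so that this count is at the background. On the adjusted p alone 6 were higher and 20 lower, or 35.6% beside 18%. In FAK-WT against FAK-kd cells 1 was higher and 3 lower past the threshold (5.48% beside 5.26%), and 10 and 13 on the adjusted p alone (31.5% beside 17.7%). In FAK-kd against FAK-/- cells 1 was higher and 1 lower (2.74% beside 2.01%), and 1 and 9 on the adjusted p alone (13.7% beside 7.84%). The counts of single lists that follow are small and are to be read against these same shares of all genes. Those shares were not matched for level, since filterByExpr kept 12235 of all 19044 genes. It kept 11 of 11 shedding genes, 15 of 16 adaptors and effectors and 15 of 16 genes of turnover. It also kept 10 of 10 Ras-ERK genes, 16 of 16 ERK targets and 2 of 4 remaining receptor and ligand genes.

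Of the 11 genes of ligand shedding, *Adam17*, the main sheddase of amphiregulin and transforming growth factor alpha, was at 89.3, 81.3 and 81.4 CPM in FAK-WT, FAK-/- and FAK-kd cells and passed no test (adjusted p = 0.197 and 0.206 against FAK-/- and FAK-kd). *Adam10*, the main sheddase of betacellulin, was at 187, 157 and 197 CPM and passed no test either. In FAK-WT against FAK-/- cells 3 of the 11 were lower past the threshold and 0 higher (5.38% of all genes in either direction), and the list's median log2 fold change was -0.31. *Timp3*, an inhibitor of ADAM17, had 0, 5 and 6 counts in FAK-WT, 30, 26 and 37 in FAK-/- and 251, 262 and 300 in FAK-kd libraries. Apart from FAK-WT replicate 1, where levels like those of FAK-/- cells cannot be seen, the libraries of the 3 lines were separate. Its log2 fold change was -2.75 (SE 0.33, adjusted p = 2.09e-05) in FAK-WT against FAK-/-, -5.70 (SE 0.31, adjusted p = 4.69e-09) against FAK-kd and 2.95 (SE 0.21, adjusted p = 3.75e-07) in FAK-kd against FAK-/- cells.

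FAK-WT replicate 1 had 0 counts of *Timp3*, *Rhbdl2* and *Spry1*. Without it each was past the threshold in both FAK-WT comparisons, with log2 fold changes of -2.73 and -5.69 for *Timp3*, -1.43 and -1.59 for *Rhbdl2* and -1.76 and -1.60 for *Spry1* (adjusted p = 0.0230 or below). *Rhbdl2*, a rhomboid protease that can cut EGF, was scarce at 0.455 ± 0.466 CPM in FAK-WT cells, 1.84 ± 0.548 in FAK-/- and 2.07 ± 0.642 in FAK-kd, with changes of -1.47 (adjusted p = 0.0221) and -1.63 (adjusted p = 0.0114). *Adam19*, another metalloprotease, was at 19.0 ± 3.19, 39.0 ± 5.61 and 20.1 ± 0.520 CPM. Like *Btc*, it was high in the FAK-/- libraries, with a change of -1.15 in FAK-WT against FAK-/- cells (SE 0.12, adjusted p = 6.28e-06), and FAK-kd against FAK-/- stayed just under the fold minimum (-0.96, adjusted p = 4.57e-05).

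Among 6 genes of the remaining receptor and ligands 4 were in the table. *Nrg2*, a neuregulin that binds ERBB3 and ERBB4, was at 3.50 ± 0.326 CPM in FAK-WT cells, 2.84 ± 0.342 in FAK-/- and 1.34 ± 0.306 in FAK-kd. It was higher in FAK-WT than in FAK-kd (1.34, SE 0.25, adjusted p = 0.00135) and lower in FAK-kd than in FAK-/- cells (-1.08, SE 0.24, adjusted p = 0.0102). FAK-WT and FAK-/- libraries overlapped (0.26, SE 0.25, adjusted p = 0.527). FAK-WT replicate 1 had 3 *Nrg2* counts, and without it the first value was 1.33. The FAK-kd mean was thus the lowest for *Nrg2*, while it was the highest for *Erbb3*. *Egf* and *Nrg3* had at most 10 counts in any library, and *Nrg4* at most 15.

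Of 16 adaptors and effectors none was past the threshold in any comparison, and on the adjusted p alone 3 were higher and 1 lower in FAK-WT against FAK-/- cells (18% of all genes). *Sos2*, a Ras exchange factor, was at 44.4, 28.2 and 30.0 CPM (0.65, adjusted p = 8.38e-05, and 0.56, adjusted p = 0.000310, against FAK-/- and FAK-kd), and *Pik3cb*, a PI3-kinase subunit, at 80.6, 51.0 and 55.3 (0.64 and 0.52, adjusted p = 7.93e-05 and 0.000479). Of 16 genes of receptor turnover and negative regulation none was past the threshold, and 0 were higher and 5 lower on the adjusted p in FAK-WT against FAK-/- cells (18% of all genes). *Cblb*, a ubiquitin ligase that marks active receptors for degradation, was at 38.1, 69.9 and 71.1 CPM in FAK-WT, FAK-/- and FAK-kd cells, with log2 fold changes of -0.92 and -0.94 (adjusted p = 6.51e-06 and 5.26e-06). *Socs3*, a feedback inhibitor of cytokine receptors, was at 21.3, 45.7 and 45.2 CPM (-0.98 and -0.96, adjusted p = 0.000121 and 0.000135). Like *Egfr*, both were near the fold limit on the low side in FAK-WT.

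Of the 10 genes of the Ras-ERK core none was past the threshold, and 2 were lower on the adjusted p in FAK-WT against FAK-/- cells, a share near the 18% of all genes. Of 16 ERK target and feedback genes 1 was lower past the threshold in each FAK-WT comparison, and on the adjusted p 2 were higher and 7 lower against FAK-/- (18% of all genes), and 3 higher and 4 lower against FAK-kd (17.7%). *Spry1*, an inhibitor of receptor signalling, was that gene, at 0.285 ± 0.252, 1.46 ± 0.267 and 1.31 ± 0.223 CPM in FAK-WT, FAK-/- and FAK-kd cells (-1.79, adjusted p = 0.00266, and -1.64, adjusted p = 0.00477). *Dusp6*, the ERK phosphatase, was at 101, 144 and 144 CPM (-0.51 in both, adjusted p = 0.000133 and 0.000125), and the ETS factor *Etv5* at 119, 171 and 159 (-0.54 and -0.44, adjusted p = 5.84e-05 and 0.000402). *Egr1*, an immediate early gene, was at 57.7, 52.4 and 48.9 CPM and passed no test. *Dusp4* went the other way, at 167, 135 and 104 CPM (0.33, adjusted p = 0.0166, and 0.71, adjusted p = 3.81e-05).

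**Figure D5:**
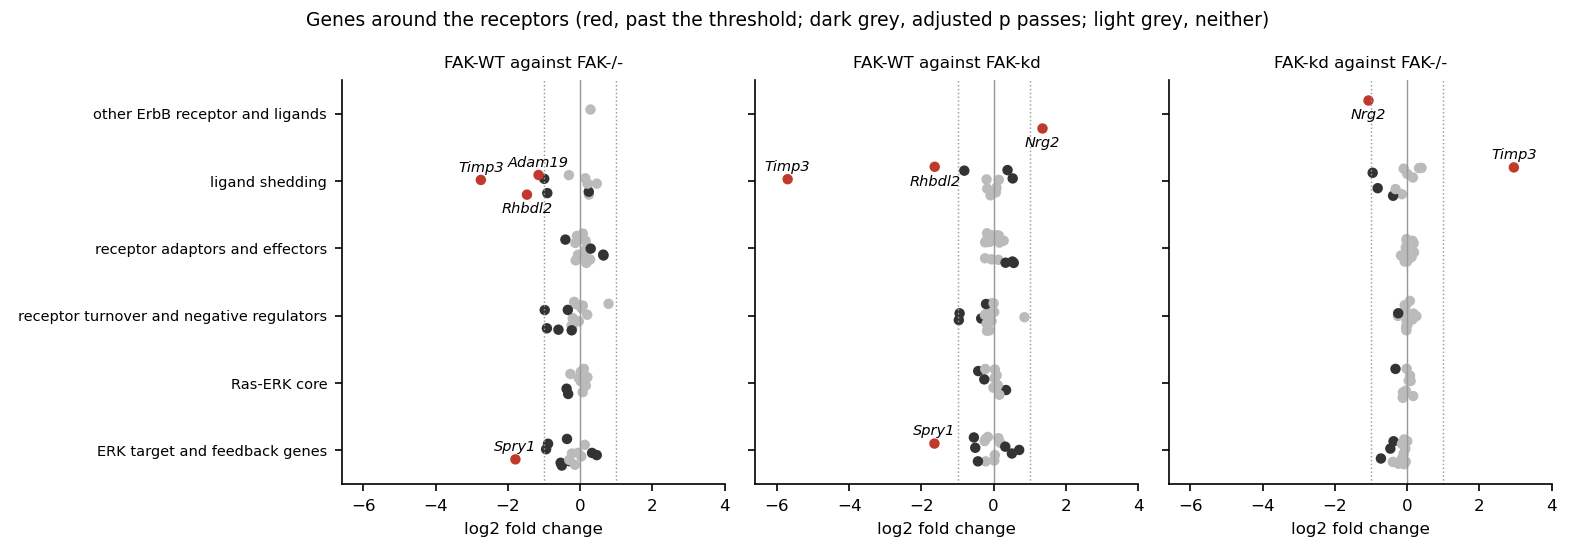
Log2 fold change of 67 pathway genes (those with a mean of at least 0.6 CPM in 1 line) by list, for the 3 comparisons. Red points are past the threshold and named, dark points passed the adjusted p alone and light points neither. *Timp3* was the farthest point in each panel, and the adaptor and Ras-ERK lists lay within a log2 fold change of 1.

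The genes most like each called member were sought by the root mean square difference of centred log2 CPM over 8 libraries, leaving out FAK-WT replicate 1, among 10905 genes. The pattern of *Egfr* was matched most closely by *Lrrc8c*, a volume-regulated anion channel subunit (0.0613), then by *Ucp2*, a mitochondrial carrier (0.0856), and *St6gal1*, a sialyltransferase (0.0870). *Lrrc8c* was at 40.5 ± 3.55 CPM in FAK-WT cells, 89.3 ± 4.50 in FAK-/- and 87.0 ± 3.45 in FAK-kd. For *Erbb3* they were *Dennd5b* (0.128), *Adcy3*, an adenylyl cyclase (0.144), and *Eif5a2*, a translation factor (0.160). For *Btc* they were *Btg3* (0.154), *Egln3*, an oxygen-sensing prolyl hydroxylase (0.224), and *Vangl2*, a planar polarity protein (0.262). *Btg3*, which encodes an antiproliferative protein, was at 20.3 ± 1.09 CPM in FAK-/- cells and at 5.18 to 9.23 CPM in the FAK-kd libraries. For *Tgfa*, at 12 or fewer counts, the closest genes *Lrrtm2*, *Parp8* and *Pcdhb20* were no nearer than 0.402. Likeness here is one of level across 8 libraries and was not tested.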

How the data were processed

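RNA was sequenced from 3 mouse SCC cell lines, 3 libraries each (TruSeq, strand not marked, paired-end). The deposited values are estimated counts per gene that the authors made with kallisto 0.43.1 and summed to genes with tximport, removing genes at 0 in all libraries. They are whole numbers without scaling, on GRCm38/mm10. Of 19044 gene identifiers 18856 had a symbol. The members, lists and tests were chosen with earlier results of these data known.

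All 9 libraries were fitted together in edgeR 4.0.16 (R 4.3.3) with TMM scaling, no count filter and cell line as the only factor, the quasi-likelihood test and Benjamini-Hochberg adjustment over all genes. The threshold was an adjusted p of 0.05 and a log2 fold change of 1, as the authors set with DESeq2. The SE is the log2 fold change divided by the square root of F. The fit was checked on simulated counts. Alternatives were other scalings and filters, DESeq2 1.42.0, pairs of lines alone, a replicate block, glmTreat, no fold minimum and leaving out each library. Totals were 779755 to 37264636 counts. Floors of 3 counts cover counting error only.

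Named were the 10 members, up to 4 genes per list and comparison with the largest changes past the threshold, the 3 genes most like each called member, and neighbours past it. Pathway genes not past it were named for their roles, after their values were seen. Gene positions and transcript lengths came from GENCODE annotation, and promoters from RefSeq (GRCm38.p6), with entries for 7 members and none used for *Erbb3*, *Ereg* and *Hbegf*.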

Additional observations from a re-analysis of the deposited data

How the results depend on the processing

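Of 495 values of the 10 genes under 17 alternatives, 453 kept their direction and side of the threshold, 22 lost the call, 2 gained it and 18, none of them called, turned in sign. Counts are given for FAK-WT against FAK-/- first, then FAK-WT against FAK-kd, then FAK-kd against FAK-/-. The members past the threshold (3, 2 and 1) became 0, 0 and 0 with glmTreat and 7, 4 and 3 with no fold minimum. Leaving out 1 library gave 1 to 4, 1 to 2 and 1 to 1, with the lowest count of the first comparison without FAK-/- replicate 2. In FAK-WT against FAK-kd cells 1 member was left with DESeq2 size factors, library size only, filterByExpr, at least 10 counts in every library, and DESeq2. Over all genes the counts (1024, 1001 and 382) became 160, 131 and 50 with at least 10 counts in every library, where the shallow FAK-WT replicate 1 limits the genes tested, 433, 450 and 117 with glmTreat, and 3422, 3376 and 1494 with no fold minimum. Leaving out 1 library gave 762 to 1025, 777 to 1152 and 264 to 396. The pathway genes (4, 4 and 2) became 2, 0 and 0, then 1, 1 and 1, then 26, 23 and 10 under the same settings, and 3 to 7, 2 to 5 and 1 to 3 on leaving out a library (7 without FAK-WT replicate 2, 2 without FAK-WT replicate 3, 1 without FAK-/- replicate 3 or FAK-kd replicate 2). Apart from the count filter, the cause was not tested.

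With the replicate number as a block the members past the threshold were 2, 2 and 1 and the pathway genes 6, 5 and 2. No pairing of the samples by number was seen. Deviations from the group means of 12235 genes correlated at -0.0464 to 0.0453 over 9 pairs of the same number. Over 18 pairs of unlike number the range was -0.0601 to 0.0637. For 0 of 9 libraries were both libraries of the same number the 2 that correlated best with it.

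The values that turned in sign were small or rested on few counts, with adjusted p of 0.137 or more. Leaving out 1 library moved the log2 fold change, in FAK-WT against FAK-/- cells, from -0.113 to 0.0169 for *Erbb2*, from -0.0390 to 0.0940 for *Ereg* and from -0.0537 to 1.77 for *Epgn*. The range was -0.00742 to 0.209 for *Ereg* and -0.16 to 0.27 for *Btc* when FAK-WT was set against FAK-kd. For FAK-kd over FAK-/- it was -0.0658 to 0.00445 for *Egfr*, -0.171 to 0.0426 for *Ereg* and -0.61 to 1.17 for *Epgn*. With the replicate block the sign turned for *Btc* in FAK-WT against FAK-kd (0.10) and for *Epgn* in FAK-kd against FAK-/- (0.29).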
